A study of Mus musculus with 12 samples.

Results

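The genes described here lie on the distal stretch of mouse chromosome 14 and were, as a block, lower in the Smad4-null line than in the WT line. A gene was a member if it started at or after 60 Mb on chromosome 14 (GRCm38 positions), had a mean log2 signal of at least 8 over the 12 arrays, and was not Gata4, Sox7, Spry2, Zic2 or Zic5, which were left out by name. Of 18193 measured genes, 246 started in the stretch, 147 of these had a mean below 8, and 96 were members. The stretch had been picked with the Smad4-null minus WT difference already seen, and the signal bound used all arrays. The members' values in that comparison are therefore a description, without a test.

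The samples were embryoid bodies, aggregates that mouse embryonic stem cells form when they differentiate in suspension, taken at day 2.5 from cells of strain 129. There were 3 lines: WT cells, Smad4-null cells and cells with Trim33 knocked down (Trim33-KD). Embryoid bodies of each line received activin at 50 ng/ml (ac) or, to block the type I receptors for activin and nodal, SB431542 (SB), in either case for 2 h. Each of the 6 groups had 2 Affymetrix arrays of total RNA, so each line had 4 arrays, a number that sets how precise any value can be. The labels give SB431542 as 10 mM, list no untreated group, and do not say how the knock-down was made or whether a genotype was 1 clone. Whether replicates were separate cultures is not said either; otherwise a p-value reflects only the spread among these samples, which may be technical.

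Smad4 is the partner protein that the receptor-activated Smads share when they carry activin, nodal and BMP signals to genes, and Trim33 is a nuclear protein that binds Smad2 and Smad3. The members are not a pathway: they share a place on a chromosome and include genes for nuclear transport, RNA processing, mitochondria, the secretory route and neurofilaments. Cultured embryonic stem cells are known to gain or lose stretches of chromosomes, and the RNA of most genes in such a stretch then follows the number of copies, while some genes are held near their usual level. Copy number was not measured in these samples, and line and genotype change together, so the 2 cannot be told apart.

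The array values were on the deposited log2 scale. Array medians lay between 5.85 and 6.30, and the SD of log2 signal over probe sets was narrow on 2 arrays, at 3.07 for the second WT-SB array and 3.13 for the first Smad4-null-ac array, against 3.24 to 3.39 on the other arrays. Trim33 read 11.72 ± 0.16 in WT and 10.18 ± 0.23 in Trim33-KD (mean ± SD, n = 4 each), which is 34.4% of WT. Smad4 read 11.96 ± 0.07 in WT and 12.17 ± 0.05 in Smad4-null (n = 4 each), so its brightest probe set does not check that label. Of 8 markers listed for early embryoid bodies 7 were found by the listed symbol, and T was not. All 7 had a mean over the 12 arrays of at least 8. Their summed log2 levels were 15.3 to 15.6 in WT, 15.2 to 15.3 in Smad4-null and 15.3 to 15.5 in Trim33-KD. By the same mean, 1 of 7 fibroblast markers (Thy1), 1 of 5 extraembryonic endoderm markers (Dab2) and 2 of 5 trophoblast markers (Tfap2c and Krt8) reached 8. In Smad4-null minus WT, 5 embryoid body markers were called lower and 1 higher, with Mixl1 at -4.26 (5.96 in Smad4-null) and Fgf5 at -1.43 the lowest. Of the fibroblast markers 2 were called lower and 1 higher (Thy1 -0.76, Col1a2 -0.48, Dcn 3.27), and 1 each of the endoderm and trophoblast markers was called lower, the latter with Cdx2 at -2.95. The summed fibroblast levels were 8.97 to 9.31 in WT, 9.0 to 9.30 in Smad4-null and 8.99 to 9.11 in Trim33-KD, and the endoderm levels 9.15 to 9.37, 8.99 to 9.21 and 9.01 to 9.23. The trophoblast levels were 11.3 to 11.7 in WT, 11.0 to 11.1 in Smad4-null and 11.8 to 12.9 in Trim33-KD, where Krt8 was 1.07 above WT. The part of these markers in the members' values was not tested. In bulk samples fewer cells of a type and less RNA per cell cannot be told apart.

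The promoters of a very low member, a member at the centre of the block and the member highest above it are shown to set the departures beside a typical gene. Each is the 250 bases before the gene's start in RefSeq, build GRCm38.p6, written 5′ to 3′ in the direction of the gene, with CG dinucleotides in capitals. The window of Tnfrsf19, a receptor of the tumour necrosis factor family, lies at chr14:61046856-61047105 on the minus strand and holds 9 CG. Tnfrsf19 has 2 windows in the promoter set, of which the first listed is shown, while Dnajc3 and Enox1 have 1 each. The window of Dnajc3, a cochaperone of the endoplasmic reticulum, lies at chr14:118937682-118937931 on the plus strand and holds 30. The window of Enox1, an ecto-NOX disulfide-thiol exchanger, lies at chr14:77156513-77156762 on the plus strand and holds 33. Enox1 had a WT mean below 8 and is a member only through the arrays of the other lines.
Tnfrsf19: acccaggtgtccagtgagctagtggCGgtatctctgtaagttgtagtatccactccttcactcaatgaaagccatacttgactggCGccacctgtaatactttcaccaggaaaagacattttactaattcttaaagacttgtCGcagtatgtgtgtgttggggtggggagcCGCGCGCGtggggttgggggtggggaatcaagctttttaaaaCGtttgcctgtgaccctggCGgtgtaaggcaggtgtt
Dnajc3: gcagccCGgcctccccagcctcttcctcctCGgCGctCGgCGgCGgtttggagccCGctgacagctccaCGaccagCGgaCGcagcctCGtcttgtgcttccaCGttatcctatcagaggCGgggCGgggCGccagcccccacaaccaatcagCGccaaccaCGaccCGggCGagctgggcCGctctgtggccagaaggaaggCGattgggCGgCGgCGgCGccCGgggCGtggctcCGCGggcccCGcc
Enox1: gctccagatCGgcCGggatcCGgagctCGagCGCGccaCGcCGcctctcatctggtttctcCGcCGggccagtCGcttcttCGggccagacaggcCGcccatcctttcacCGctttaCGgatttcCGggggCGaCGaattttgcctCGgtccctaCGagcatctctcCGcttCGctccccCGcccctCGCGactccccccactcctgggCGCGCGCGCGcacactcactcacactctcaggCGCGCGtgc

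Of the 96 members, 50 had a promoter entry, among them neither Nefl nor Nefm. Their windows held a median of 19 CG (quartiles 11.25 and 25.75), close to the 17 of the 6867 genes with a mean of at least 8 and above the 6 of all 27025 genes. The Smad palindrome GTCTAGAC, which reads the same on both strands, was found in 0 of the 50 windows. Over all genes, by the first listed window of each, it was found in 0.174%. At so low a share 0 of 50 is the likely outcome, so the count says nothing of the members. The 5 low departures with an entry had a median of 24 CG and the 6 high departures a median of 31, so the low count of Tnfrsf19 is not typical of the low departures. A match or its absence in these letters describes the window only.

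The block was present on each Smad4-null array and at nearly the same depth. As the median over members of the log2 signal minus the WT mean, the Smad4-null arrays stood at -0.78 and -0.76 with activin and at -0.73 and -0.71 with SB431542. The WT arrays stood at -0.04, 0.00, -0.03 and 0.06, and the Trim33-KD arrays at -0.05, -0.06, 0.02 and -0.05. Smad4-null therefore lay apart from both other lines on every array, with array medians of -0.74 ± 0.03 (SD, n = 4) against -0.04 ± 0.04 in Trim33-KD. On the linear scale the members' median signal was 58.4%, 59.0%, 60.4% and 61.1% of WT on the 4 Smad4-null arrays. Genes on chromosomes other than 8 and 14 with a mean of at least 8 had array medians between -0.03 and 0.04. The members' lower level was thus not shared by these genes. All arrays have the same trimmed mean of 500 on the linear scale, so such medians cannot test for a shift of whole arrays.

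**Figure D1:**
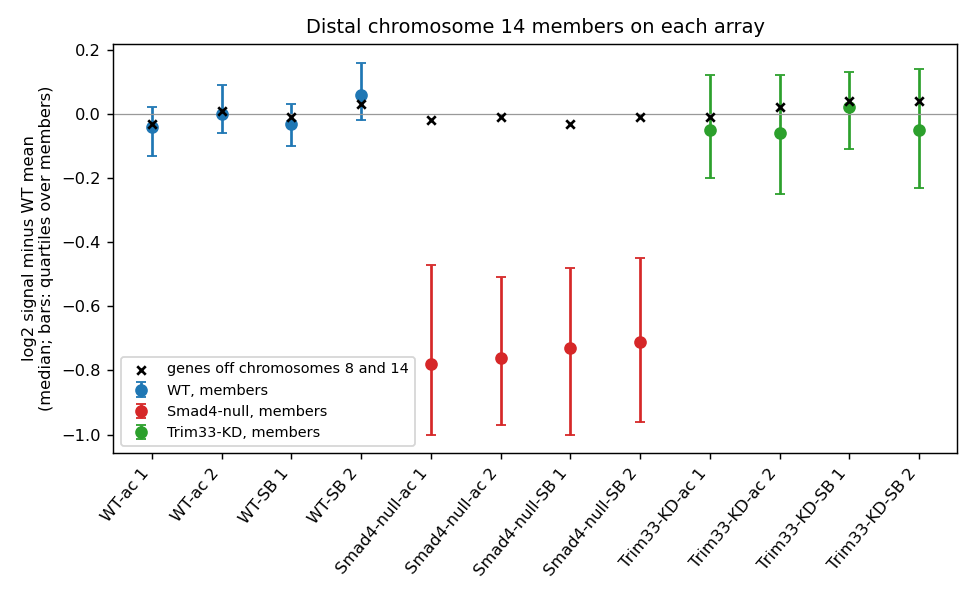
Log2 signal of the 96 members minus each gene's WT mean, for every array (x axis: line, treatment and replicate number). Points are medians over members and bars their quartiles, which are spread between genes and not error, and crosses are medians of genes off chromosomes 8 and 14. The 4 Smad4-null points lie between -0.78 and -0.71, and the WT and Trim33-KD points between -0.06 and 0.06.

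Single members followed the block in most cases. In Smad4-null minus WT, averaged over the treatments, the member median was -0.75 on the log2 scale, or 59.5% of the WT signal, and 92 of 96 members were below 0. The quartiles were 51.6% and 69.5% of WT, and the range ran from 8.98% to 218%. For comparison, 7552 genes off chromosomes 8 and 14 with a mean of at least 8 had a median difference of -0.01. The SE of a member's difference was 0.07 to 0.31 with a median of 0.10. All 4 Smad4-null arrays lay below all 4 WT arrays for 82 members, which was so for 15% of all genes and 21.3% of genes with a mean of at least 8. They lay above WT for Ints6 and Enox1 (10.8% and 16.5% in the same backgrounds) and overlapped WT for 12 members. limma called 79 members lower and 2 higher at an adjusted p under 0.05 (11.3% and 7.12% of all genes, 14.7% and 10.1% of genes with a mean of at least 8), and nothing is read from these counts because the stretch was chosen on this contrast.

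The shares of WT signal clustered between 40% and 80%. In that range lay 73 of 96 members against 17.3% of the other genes, and between 50% and 70% lay 51 members against 7.31%. Below 40% were 11 members, at or above 80% were 12, and above the WT level were 4. Within 0.25 of the member median on the log2 scale lay 52 members, within 0.5 lay 74 and within 1 lay 90. The interquartile range of the log2 differences was 0.43 for members and 0.39 for the other genes. Without the 10 lowest and 10 highest members, the remaining 76 had a median of -0.75 and ran from -1.34 to -0.27, with an SD of 0.24 between genes. Leaving out equal numbers at both ends keeps the median in place and must narrow the range and SD. The other genes were not trimmed in this way.

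**Figure D2:**
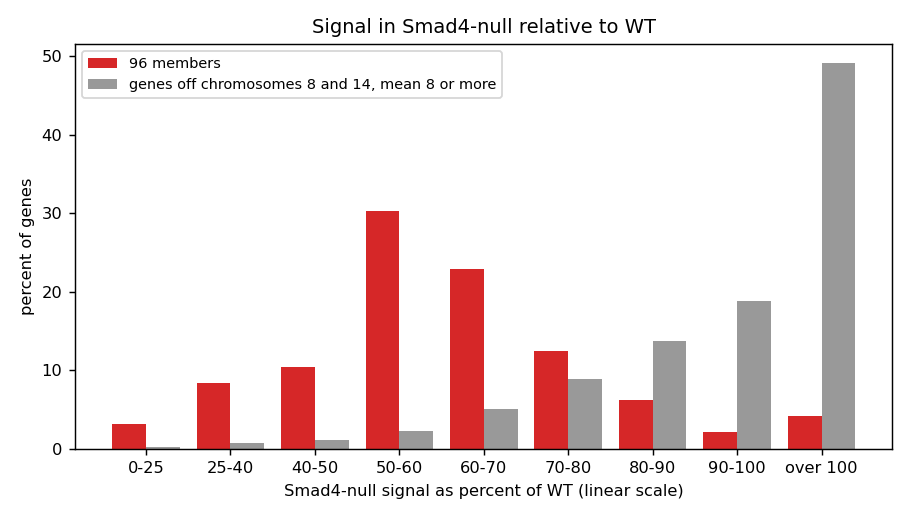
Share of genes (y axis, percent) by their Smad4-null signal as percent of WT on the linear scale (x axis), for the 96 members (red) and for 7552 genes off chromosomes 8 and 14 with a mean of at least 8 (grey). The bin of 50 to 60% holds 30.2% of the members and 2.28% of the other genes, and the bin over 100% holds 4.17% and 49.1%.

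By the probe set that stands for each gene, brighter members read slightly nearer to WT. The 32 dimmest members had a median of 58.7% of WT, the middle 32 a median of 59.5%, and the 32 brightest a median of 64.1%. The 10 brightest were Tpt1, Ipo5, Tsc22d1, Tm9sf2, Xpo7, Ppp2r2a, Sugt1, Dis3, Stk24 and Itm2b. Tpt1 aside, they ran from 52.5% of WT in Itm2b, a membrane protein of the secretory route, to 77.8% in Tsc22d1. Further probe sets of Tsc22d1 with a mean of at least 8 gave 56.9% to 72.4%, below its brightest one. In Ipo5 (67.9%), Xpo7 (50.8%), Stk24 (45.6%) and Tm9sf2 (55.4% and 70.3%), such probe sets also read below the brightest one. Those of Sugt1 (73.5%) and Itm2b (52.7%) read above it, and those of Ppp2r2a (56.0% and 67.7%) lay on either side. Whether the trend belongs to the gene or to the probe set was not tested. The signal bound also shaped the set: 12 members had a mean below 8 in Smad4-null and 1, Enox1, in WT. Just inside the bound were Msra at -0.19, Hmbox1 at -1.12 and Pdlim2 at -0.58, and just outside it were Elf1 at -0.05, Rhobtb2 at -0.50 and 9930012K11Rik at -0.71. Among 145 dimmer genes of the stretch, 96 were below 0, with a median of -0.29 against -0.06 for 9005 dim genes elsewhere, and the 18 with a mean of 7 to 8 had a median of -0.57.

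Along the chromosome the low level began before the members' bound. Among genes with a mean of at least 8, the 103 from Rpp14 to Otx2 had a median Smad4-null minus WT difference of 0.08, with 42 below 0. The 72 from Exoc5 to the bound had a median of -0.80, with 71 below 0. At the change, Ktn1 stood at -0.05 and Otx2 at 0.20, and the next genes Exoc5, Ap5m1, Naa30 and Ttc5 stood at -0.93, -1.07, -1.13 and -0.61. Exoc5 as the first low gene was chosen after these values were seen. Nothing stepped at the bound itself: Setdb2, Cab39l and Cdadc1 just before it read -0.70, -0.80 and -0.77, and the first members Nupl1, Mtmr6, Spata13 and Mipep read -0.47, -0.95, -1.31 and -1.04. Phf11d, also just before the bound, read 0.08.

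In runs of 24 members, the medians were -0.81 from Nupl1 to Elp3, -0.79 from Pbk to Dok2, -0.63 from Fndc3a to Tdrd3 and -0.65 from Mzt1 to Tmtc4, or 57.2%, 57.9%, 64.7% and 63.9% of WT. The first 2 runs thus read lower than the last 2, a description for which no test was run. In Trim33-KD minus WT the same runs had medians of -0.11, -0.01, 0.01 and 0.04.

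**Figure D3:**
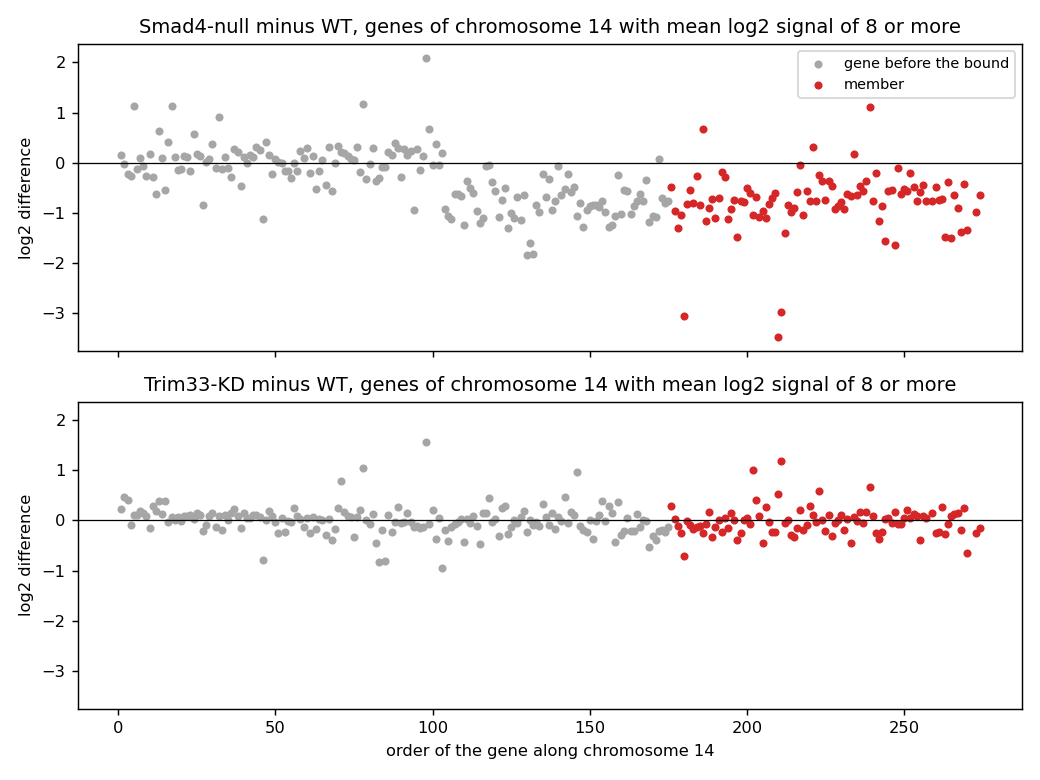
Log2 difference of each chromosome 14 gene with a mean of at least 8 (y axis) by its order along the chromosome (x axis), for Smad4-null minus WT above and Trim33-KD minus WT below. Grey points are genes before the bound, and red points are the 96 members. In the upper panel the points shift down from Exoc5 on, to medians of -0.80 before the bound and -0.75 in the members, and in the lower panel the members' median is -0.02.

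Xpo7, an exportin, and Extl3, a glycosyltransferase of heparan sulfate synthesis, show what a typical member looked like. Xpo7 read 12.49 and 12.42 (activin) and 12.44 and 12.38 (SB431542) in WT, 11.67, 11.67, 11.71 and 11.63 in Smad4-null, and 12.46, 12.44, 12.37 and 12.34 in Trim33-KD. All Smad4-null arrays were low, by -0.76 ± 0.07 (SE) or 59.1% of WT, and the Trim33-KD arrays overlapped WT. Extl3, the member nearest the median, read 10.12, 10.19, 10.08 and 10.30 in WT, 9.77, 9.54, 9.14 and 9.24 in Smad4-null, and 10.16, 9.93, 10.30 and 10.31 in Trim33-KD. Its Smad4-null arrays were again all low, at 59.5% of WT, with the activin arrays above the SB431542 arrays.

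By their brightest probe sets, the genes of cell division and nuclear transport stood a little above the block. Of 10 listed genes of the cell cycle and mitosis 8 were members, with a median of 66.3% of WT. Sugt1, a cochaperone needed for kinetochores, was 12.36 ± 0.07 in WT and 11.81 ± 0.05 in Smad4-null (n = 4 each), or 68.4% of WT. Bora, an activator of Aurora kinase A, was at 65.4%, and Cdca2, a phosphatase subunit of mitotic chromatin, at 61.7%. Mzt1, a small protein of the gamma-tubulin ring, was at 93.4% with overlapping arrays. Its further probe sets with a mean of at least 8 gave 79.2% and 76.5%. Such probe sets gave 73.5% in Sugt1, 81.0% in Bora, 61.0% in Cdca2 and 54.4% in Slain1, also a listed gene. The 4 members of the transport list had a median of 70.5%. The importin Ipo5 was at 76.4%, the importin alpha Kpna3 at 69.0%, the nucleoporin Nupl1 at 72.0%, and Xpo7 was the lowest of the 4. Further probe sets with a mean of at least 8 read lower in all 4, at 67.9% in Ipo5 and 50.8% in Xpo7. Kpna3 gave 54.9% and 55.8% there, and Nupl1 55.1%, 57.1% and 52.0%. The place of the transport list above the block thus depends on the probe set.

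Genes of transcription and RNA processing lay at the centre of the block by their brightest probe sets. Of 12 listed transcription factors 5 were members, with a median of 59.3% of WT. Tsc22d1 was at 77.8%, Klf5, a Krüppel-like factor of pluripotent cells, at 67.7% (11.17 ± 0.21 in WT and 10.61 ± 0.14 in Smad4-null), and the homeobox factor Hmbox1 at 45.9%. All 14 listed RNA genes were members, with a median of 59.4%. Med4, a Mediator subunit, was 11.19 ± 0.09 in WT and 10.32 ± 0.11 in Smad4-null, or 54.8%. Dis3, the exosome nuclease, was at 69.2%, Elp3, the catalytic Elongator subunit, at 58.0%, and Rnaseh2b, a subunit of ribonuclease H2, at 56.2%. Further probe sets with a mean of at least 8 gave 70.7% and 74.1% in Elp3 and 56.9% to 72.4% in Tsc22d1.

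By their brightest probe sets, metabolic genes read close to the block and secretory genes somewhat below it. Of 12 listed genes of mitochondrial proteins 7 were members, with a median of 58.0% of WT. Sucla2, a subunit of succinyl-CoA ligase, was 11.76 ± 0.16 in WT and 10.98 ± 0.06 in Smad4-null, or 58.0%, and Pcca, the alpha subunit of propionyl-CoA carboxylase, was at 50.9%. The 3 members of the other metabolic list had a median of 60.2%, among them Fdft1, squalene synthase, at 60.2% and the epoxide hydrolase Ephx2 at 62.5%. Of the endoplasmic reticulum, Golgi and lysosome list 9 of 11 were members, with a median of 55.7%. Ctsb, the lysosomal protease cathepsin B, was at 53.7%, Chmp7, an ESCRT protein of the nuclear envelope, at 55.7%, and the zinc and iron transporter Slc39a14 at 97.5%. Among the genes named here, further probe sets with a mean of at least 8 gave 80.8% in Fdft1 and 43.4% in Ctsb. Whether the small gaps between these list medians and the block hold on other probe sets was not tested.

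The remaining lists had medians of 66.2% for the ubiquitin system (7 of 11 genes members), 52.4% for the cytoskeleton and small GTPases (8 of 15) and 58.8% for receptors, ligands and extracellular proteins (5 of 15). Trim35, a RING finger protein, was 11.16 ± 0.14 in WT and 10.08 ± 0.06 in Smad4-null, or 47.1%, and Mycbp2, a large ubiquitin ligase, was at 71.4%. Dpysl2, a collapsin response mediator that binds tubulin, was at 51.2%, the kinase Stk24 at 64% and the exchange factor Dock9 at 53.5%. The receptor Lpar6 was at 72.7%. Further probe sets with a mean of at least 8 gave 61.1% and 61.7% in Mycbp2, 45.6% in Stk24 and 51.1% in Dock9. Across the 10 lists, which take in 70 members, no list lay at the WT level: the medians ran from 52.4% to 70.5%, and each list's range overlapped those of the others. limma called lower from 6 of 8 members of a list to all of them, against 79 of all 96 members, 11.3% of all genes and 14.7% of genes with a mean of at least 8, and in the lists it called 1 member, Ints6, higher; with the stretch chosen on this contrast, these counts say nothing of a list.

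Nefl, Nefm and Tnfrsf19 stood far below the block. Nefl, the light neurofilament subunit, read 12.46, 12.66, 11.96 and 12.14 in WT (activin, activin, SB431542, SB431542), 8.43, 9.07, 8.82 and 9.0 in Smad4-null, and 12.88, 13.15, 12.63 and 12.66 in Trim33-KD. Nefm, the medium subunit and the next member along the chromosome, read 8.85, 8.86, 8.80 and 8.57 in WT, 5.74, 6.01, 5.76 and 5.71 in Smad4-null, and 9.78, 10.04, 9.95 and 10.07 in Trim33-KD. Smad4-null lay far below the other lines in both genes; Trim33-KD lay above WT on every array in Nefm, while in Nefl the highest WT array reached the lowest Trim33-KD arrays. The Smad4-null minus WT difference was -3.48 ± 0.15 (SE) in Nefl and -2.96 ± 0.10 in Nefm, or 8.98% and 12.8% of WT. The Smad4-null arrays of Nefm read near the array medians of 5.85 to 6.30, so the size of its difference is uncertain: it was -2.77 when linear signals under 64 were set to 64. A further Nefl probe set gave -3.69. Tnfrsf19 read 9.84, 10.47, 10.13 and 10.36 in WT, 6.84, 7.33, 7.37 and 7.04 in Smad4-null, and 9.81, 9.23, 9.77 and 9.17 in Trim33-KD. Its Smad4-null arrays were all low, by -3.05 ± 0.23 or 12.1% of WT, while dimmer Tnfrsf19 probe sets gave -2.05 and -2.09.

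A further 7 members, named as the rest of the 10 lowest, lay between 31.9% and 38.6% of WT. Tdrd3, a Tudor domain protein that partners topoisomerase 3B, read 9.08, 9.38, 9.17 and 9.18 in WT, 7.79, 7.67, 7.41 and 7.36 in Smad4-null, and 9.42, 9.39, 9.32 and 9.34 in Trim33-KD. The Smad4-null arrays lay more than a log2 unit below every other array, with a difference of -1.65 ± 0.09, although dimmer Tdrd3 probe sets gave -0.74 and -0.86. Kbtbd7, a BTB-kelch adaptor of a ubiquitin ligase, was at 34.0% and Farp1, a FERM domain protein, at 35.5%. The small GTPase Rap2a was at 35.8%, the Wnt receptor Fzd3 at 35.9%, R3hcc1 at 37.9% and Ubac2, a protein of the endoplasmic reticulum, at 38.6%. When all probe sets of a gene were averaged in place of the brightest, Tdrd3 stood at -1.08 and Fzd3 at -0.85, nearer to the block.

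At the other end, Enox1 was higher in Smad4-null. It read 7.29, 7.79, 7.61 and 7.75 in WT, 8.86, 8.73, 8.52 and 8.82 in Smad4-null, and 8.39, 8.20, 8.35 and 8.20 in Trim33-KD. The lines did not overlap, with Trim33-KD in between, and Smad4-null was at 218% of WT (1.12 ± 0.14 on the log2 scale). The WT mean of Enox1 was below 8, so it passed the signal bound through its Smad4-null and Trim33-KD arrays. Its place among the members thus comes in part from the difference described. Ints6, a subunit of the Integrator complex, read 11.32, 11.40, 11.29 and 11.71 in WT, 12.06, 12.10, 12.15 and 12.14 in Smad4-null, and 11.15, 11.07, 11.33 and 11.15 in Trim33-KD. Its brightest probe set was thus higher in Smad4-null, at 160% of WT (0.68 ± 0.11). Its other probe sets went the other way: one with a mean of 9.59 read 9.94 ± 0.03 in WT and 8.97 ± 0.26 in Smad4-null, or 51.0% of WT, and a dimmer one was at 76.5%. The mean of the Ints6 probe sets gave -0.37, so its direction depends on the probe set.

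Tpt1, the tumour protein translationally controlled, was the brightest member and near the WT level. It read 13.82, 13.97, 13.69 and 14.48 in WT, 14.64, 14.10, 13.88 and 14.01 in Smad4-null, and 13.90, 14.14, 14.17 and 13.97 in Trim33-KD. The lines overlapped (0.17 ± 0.20, 112% of WT), and the highest array of WT and of Smad4-null was in each case the array of narrow spread. Tpt1 has many near-identical processed copies in the genome, so its signal cannot be given to 1 locus with certainty. Dmtn, an actin-bundling protein, was at 124% of WT, but at 0.04 on the log2 scale with the mean of its probe sets. Slc39a14 and Mzt1, both close to 0, changed sign without the 2 arrays of narrow spread, from -0.04 to 0.09 and from -0.10 to 0.02. Msra, Akap11, Commd6 and Dok2, the rest of the 10 highest, lay between 84.5% and 87.5%.

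**Figure D4:**
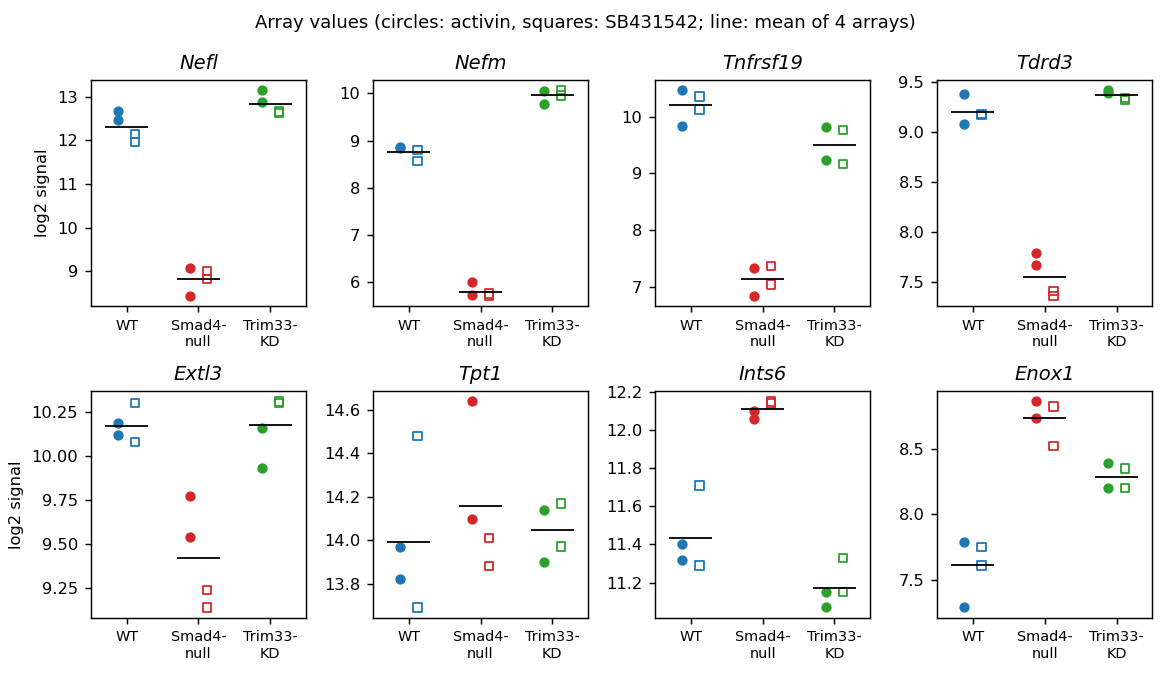
Log2 signal on each array (y axis, a separate scale for each gene) of 8 members in WT, Smad4-null and Trim33-KD (x axis), with filled circles for activin, open squares for SB431542 and a line at the mean of 4 arrays. Nefl, Nefm, Tnfrsf19 and Tdrd3 are low on all 4 Smad4-null arrays, Extl3 shows the block's typical difference, Tpt1 overlaps between lines, and Ints6 and Enox1 are highest in Smad4-null.

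The other probe sets of the members, which the choice of 1 probe set per gene left aside, showed the block too. The members had 145 further probe sets, of which 53 in 35 genes had a mean of at least 8. All 53 were below 0 in Smad4-null minus WT, with a median of -0.81 or 56.9% of WT. The difference of 30 of them lay within 0.25 of that of the brightest probe set, and 3 lay more than 0.5 away, 2 in Ints6 and 1 in Zc3h13 (-0.39 against -0.92). These probe sets were measured on the same arrays, so they check the probe set and not the samples.

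The block was of similar size under both treatments. The member median of Smad4-null minus WT was -0.73 on the activin arrays and -0.75 on the SB431542 arrays, which are separate samples. In both treatments 91 members were lower and 3 higher, while Slc39a14 (0.18 and -0.25) and Tpt1 (0.47 and -0.14) changed sign. Across the 96 genes the differences correlated with a Pearson coefficient of 0.915 and a Spearman coefficient of 0.772, and without Nefl, Nefm and Tnfrsf19 with 0.842 and 0.750, in that order. This is a correlation across genes that share their arrays within a treatment, and genes are not independent replicates. The coefficients were not taken for other genes, so they do not set the members apart. Nefl was at -3.81 and -3.14, Nefm at -2.98 and -2.95, Enox1 at 1.26 and 0.99, and Kbtbd7 at -1.86 and -1.26. The median absolute gap between treatments was 0.15, and it passed 0.5 in Trim13, Kif13b, Nefl, Reep4, Tpt1, Kbtbd7, Slain1 and Dock9.

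**Figure D5:**
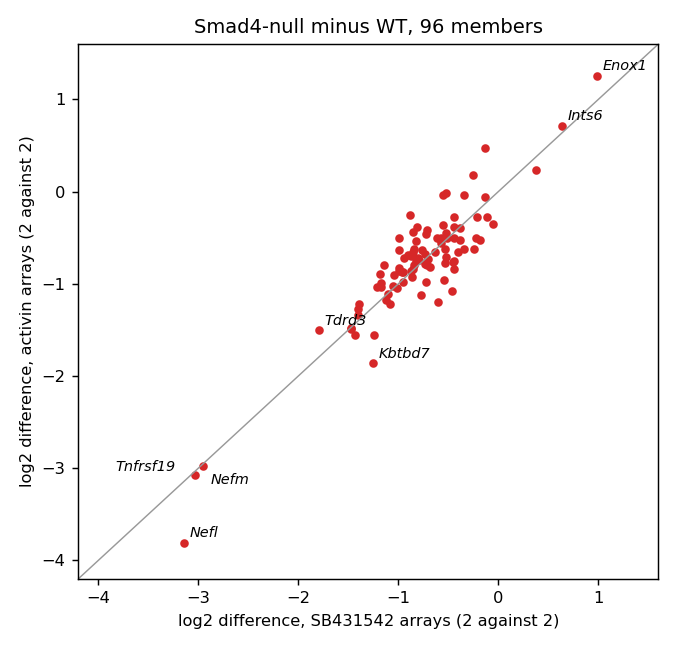
Smad4-null minus WT log2 difference of each of the 96 members on the activin arrays (y axis) against the SB431542 arrays (x axis), 2 against 2 in each, with the line of equality. Most points lie near the line around the medians of -0.73 and -0.75, and Nefl, Nefm and Tnfrsf19 lie apart at the lower left and Enox1 and Ints6 at the upper right.

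No member differed between activin and SB431542 past the threshold. limma with Benjamini-Hochberg adjustment over all genes called 0 of 96 members between activin and SB431542 in WT (0.033% of all genes called), 0 in Smad4-null (0.011%) and 0 in Trim33-KD (0.011%). At an unadjusted p under 0.05 there were 1, 5 and 2 members, or 1.04%, 5.21% and 2.08%, against 4.02%, 6.81% and 4.21% of all genes and 1.79%, 1.93% and 2.20% of the 7552 other genes. The member medians were -0.05, 0.00 and -0.03, and the ranges were -0.31 to 0.51, -0.57 to 0.49 and -0.33 to 0.40. The members with the smallest p were Nefl in WT (0.51 ± 0.22), Extl3 (0.46), Commd6 (-0.40), Tdrd3 (0.34), Reep4 (0.49) and Kbtbd7 (-0.57) in Smad4-null, and Dmtn (0.40) and Trim13 (-0.33) in Trim33-KD. The smallest adjusted p by limma was 0.585, in Smad4-null.

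The difference of responses asks directly whether the line difference of a member depended on the treatment. limma called 0 of 96 members, as it called 0% of all genes, with 3 members (3.13%, against 7.24% of all genes and 2.04% of the other genes) at an unadjusted p under 0.05, namely Trim13 (0.50), Extl3 (0.50) and Reep4 (0.63). The smallest adjusted p by limma was 0.654, and the members ran from -0.67 to 0.63 with a median SE of 0.21. In Trim33-KD minus WT the response difference was called in 0 members (0% of all genes) and had 0 at an unadjusted p under 0.05 (2.67% of all genes). Differences of the size of the SE could not be seen with 2 arrays a group.

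Trim33-KD embryoid bodies did not show the block. Their member median minus WT was -0.02 or 98.3% of WT, close to the 0.02 of the 7552 other genes, and the members ran from -0.70 to 1.19. All 4 Trim33-KD arrays lay below WT for 19 members and above for 11 (6.28% and 6.12% of all genes, 7.31% and 9.82% of genes with a mean of at least 8), and overlapped WT for 66. limma called 0 members lower and 1 higher (0.203% and 0.445% of all genes, 0.217% and 0.602% of genes with a mean of at least 8), and 27 (28.1%, against 19.0% of the 7552 other genes) had an unadjusted p under 0.05. The member that rose was Nefm, from 8.77 ± 0.14 to 9.96 ± 0.13 (n = 4 each), a difference of 1.19 with a 95% interval of 0.94 to 1.43 and a limma adjusted p of 0.0101, higher on 4 of 4 arrays. The call ended without Trim33-KD-SB replicate 2 (1.16, limma adjusted p 0.0572) and without the 2 arrays of narrow spread (1.13, limma adjusted p 0.0521), within a range of 0.000137 to 0.0572 over the settings. Nefm was thus low in Smad4-null and high in Trim33-KD against the same WT arrays.

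Members that came near the threshold in Trim33-KD did not share a direction. Dok2, an adaptor of tyrosine kinase signals, differed by 0.58 (limma adjusted p 0.0664), Enox1 by 0.67 (adjusted p 0.0873), Dpysl2 by -0.44 (adjusted p 0.0978) and Ccar2, a regulator of the deacetylase Sirt1, by -0.33 (adjusted p 0.163). The count of called members was 12 when only the upper 50% of genes by signal were fitted (8.65% of those genes called) and 6 with a trended and robust prior (3.5% of all genes called). Nefl at 0.52 (limma adjusted p 0.168), Tnfrsf19 at -0.70 (adjusted p 0.204) and Clybl, a mitochondrial lyase, at -0.64 (adjusted p 0.176) did not pass either. A further Nefl probe set gave 0.18, and dimmer Tnfrsf19 probe sets gave 0.01 and -0.97. Clu, the secreted chaperone clusterin, read 8.75, 9.26, 8.75 and 9.43 in WT, 7.98, 7.99, 8.09 and 8.0 in Smad4-null, and 9.53, 10.71, 9.57 and 10.37 in Trim33-KD. Its lines did not overlap, and in WT and Trim33-KD replicate 2 read above replicate 1 under both treatments. The 0.99 difference from WT had a limma adjusted p of 0.186. Further Clu probe sets gave 1.18, 1.44 and 1.24. The summed trophoblast level was higher in Trim33-KD, as given above, with Krt8 1.07 above WT. The other markers of that list differed by 0.13 (Cdx2), 0.14 (Tfap2c), -0.22 (Elf5) and -0.12 (Plac1). A part of these markers in the values of Nefm or Clu was not tested. No role list held a member called in Trim33-KD as fitted here. Of the list members, only Dpysl2 and Ccar2 were followed through the alternative settings, where Dpysl2 passed in 2 and Ccar2 in 1. Whether other list members were among the 12 and the 6 called in such settings was not looked up.

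Set against Trim33-KD instead of WT, the Smad4-null arrays gave the same picture, with a member median of 0.70 for Trim33-KD minus Smad4-null. Trim33-KD lay above Smad4-null on all arrays for 76 members (15.2% of all genes, 22.5% of genes with a mean of at least 8) and below for Enox1 and Ints6 (12% and 16.3%). This comparison uses the same Smad4-null arrays as the one with WT, so it is given for the members' values only.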

How the data were processed

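Total RNA of 12 embryoid body samples in 6 groups of 2 was hybridised to Affymetrix mouse expression arrays, 1 per sample. The deposited table holds 1 log2 signal for each probe set and array. Back on the linear scale, with 2% trimmed at either end, every array averages 500. The method that summarized the probes was not given in the sources used here. The submitters' processing notes name limma without a version. Values were used unchanged, with no pseudocount.

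The arrays hold 45101 probe sets, 64 of them controls; the platform annotation gave exactly 1 symbol for 34945, several for 932 and none for 9160. Only those with 1 symbol were used, and the probe set with the highest mean stood for each of 18193 genes. RefSeq positions (GRCm38.p6) placed the genes, 114 of them through the symbol, and 48 had none. A mean over all 12 arrays lets in a gene that is bright in only some groups. Chromosome 8 was set aside with chromosome 14 in the comparison genes because it was set aside in the earlier analysis of these data.

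A means model of 6 groups was fitted over all arrays (R 4.3.3, limma 3.58.1, lmFit and eBayes, 6 residual degrees of freedom), with Benjamini-Hochberg adjustment over all genes and a threshold of 0.05. The fit was tested on simulated data. Figures used Python 3.11.15 and matplotlib 3.10.9.

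The members, the 10 role lists and the tests were chosen with earlier results of these data known. The rule for named genes took the 10 lowest and 10 highest members, the 10 brightest, members past the threshold or up to 5 with the smallest p per tested comparison, genes beside the bounds, and up to 6 of the brightest members per list; Zc3h13, Phf11d, Clu, Clybl and the members whose treatments differ by over 0.5 were named after their values were seen. The alternatives tried were the upper 50% of genes, quantile normalization, median centring, the mean of probe sets, no x_at or s_at probe sets, a floor of 64 on the linear scale, a trended and robust prior, a replicate block, other bounds, and leaving out arrays.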

Additional observations from a re-analysis of the deposited data

Results flagged for a closer look

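In 60 sets of 4 arrays (20 departing members in each of 3 lines), 2 held an array set apart from the other 3 by Dixon's criterion of 0.829, where chance gives about 1 in 20. Both are high values on Smad4-null-ac replicate 2: Nefm read 6.01 there, against 5.71 to 5.76 on the other Smad4-null arrays, and Farp1 read 8.40, against 8.30 to 8.31. Neither value comes near the WT arrays of its gene, which start at 8.57 for Nefm and 9.57 for Farp1.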

How the results depend on the processing

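In Smad4-null minus WT the member median was -0.68 with quantile normalization, -0.70 with median centring, -0.64 with the mean of probe sets, -0.72 for members of mean 9 or more (70 genes) and -0.64 with a start at or after 70 Mb (58 genes, 46 called lower, a smaller set by construction); leaving out each array gave -0.75 to -0.72, with 65 to 77 members called lower. In Trim33-KD minus WT the median was -0.15 with the mean of probe sets and -0.05 to -0.02 leaving out each array. The members called there numbered 12 with the upper 50% of genes (8.65% of genes called), 6 with the trended and robust prior (3.5%), 2 with the floor (1.26%), and 0 without the 2 arrays of narrow spread, with a mean of 9 or a start at or after 70 Mb, and 0 to 1 leaving out each array; the 0 for the bounds follows from Nefm leaving the set. The other counts of called members in the activin responses and in the Smad4-null response difference stayed at 0 in all 21 alternatives run. With the mean of probe sets, Ints6 reversed to -0.37 in Smad4-null minus WT, the WT response of Dmtn to -0.056 and the Smad4-null response of Kbtbd7 to 0.059; the averaging takes in dimmer probe sets that read otherwise. Of 380 values of the 20 departing members under the alternatives, 364 moved by less than the spread between arrays. The sign changed in 9: 4 in Slc39a14, 2 each in Mzt1 and Tpt1, which lay near 0 and were not called, and 1 in Ints6.

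Replicate numbers showed no pairing common to all groups: of 15 correlations of same-numbered deviations, 6 were over 0.1 (range -0.32 to 0.42). The 2 highest lay within a line, between its treatments, at 0.42 in WT and 0.33 in Trim33-KD, while Smad4-null gave -0.21. A pairing within a line was not tested, and the replicate block is 1 effect common to all lines. With the replicate block 79 members were called lower in Smad4-null and 1 was called in Trim33-KD. With 2 arrays per group, small responses could not be seen, and dim genes carry more noise.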
